A study of Mus musculus with 30 samples.

Results

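*Chil1*, *Chil3*, *Chil4* and *Retnla*, 3 chitinase-like genes and a resistin-like gene that are widely read as marks of alternatively activated macrophages, were followed across the 5 groups of the study in bone marrow (BM) and in F4/80+ adipose tissue macrophages (ATMs). The 4 genes were chosen by symbol, with earlier results of the same group comparisons known, from 17336 genes in the 2 tables of counts. All 4 are in the ATM table of 17059 genes, and *Chil1*, *Chil3* and *Chil4* are in the BM table of 13353 genes. *Retnla* in BM was not analysed here. Because the choice rests on these comparisons, the levels and changes of the 4 genes are given as a description. Calls from a test over all genes are shown for them beside the share of all genes called, and nothing is read from how many of the 4 were called.

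RNA was sequenced from lethally irradiated recipients (700 cGy followed by 400 cGy) that received CD45.2+ BM cells of Shp2E76K/+;LysM-Cre+ donors, which carry an activating mutation of the phosphatase SHP2, mixed 1:1 with CD45.1+ competitor cells of Boy/J mice (500000 cells each). Recipients were WT C57BL/6 mice or leptin-deficient Ob/Ob mice on a C57BL/6J background, and the labels give the mice used as of both sexes and about 12 to 14 weeks of age, without saying at which step (the methods give a somewhat younger age for recipients at irradiation). From 8 weeks after transplantation the Ob/Ob recipients were given, for 30 days, vehicle (Vehicle), the GLP-1R agonist beinaglutide at 3 mg/kg subcutaneously, an anti-IL-17A antibody at 200 µg per mouse intraperitoneally 3 times a week, or both agents (Combo). No treatment is given for the WT group, and each group has 3 libraries per tissue, 30 in all. Vehicle vs WT therefore joins the difference in recipient genotype with the giving of vehicle. The donor cells are described for the experiment and not library by library, and all libraries carry the genotype label C57BL/6J. The study's text also describes an ATM comparison by donor genotype, mutant or WT, so whether the donor cells also differed between the WT and Ob/Ob groups cannot be told from the labels. LysM-Cre is active in cells of the myeloid lineage, so the mutation is not switched on in every donor cell. A sort of ATMs by CD45 allele is not given in the sources used here, so donor, competitor and surviving host macrophages were counted together.

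Chitinase-like proteins share the fold of chitinases but lack their enzyme activity. *Chil3* (Ym1) and *Chil4* (Ym2) are neighbouring, closely related mouse genes, *Chil1* encodes the mouse counterpart of CHI3L1 (YKL-40), and *Retnla* encodes RELMα (FIZZ1), a small secreted protein of the resistin family. In macrophages *Chil3* and *Retnla* are induced by IL-4 and IL-13 through IL-4Rα and the transcription factor STAT6, whereas *Chil3* is also made in large amounts by neutrophil precursors and *Chil1* is stored in neutrophil granules, so that a rise of either in a mixed sample can come from more than a single cell type.

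The upstream sequences of the 4 genes are shown because *Chil3* and *Chil4* went the same way, and *Retnla* the other way, in most ATM comparisons. *Chil1* lies on chromosome 1 (134182176 to 134190181, plus strand), *Chil3* and *Chil4* lie on chromosome 3 (106147554 to 106167564 and 106201490 to 106219507, minus strand), and *Retnla* lies on chromosome 16 (48842551 to 48844461, plus strand), all in GRCm38 with GENCODE models. None of their exons overlaps an exon of another gene. The runs below are the RefSeq promoter windows of GRCm38.p6, upstream of the first annotated start of each gene and 5′ to 3′ on the strand of the gene, at chr1:134181906-134182155 (plus strand), chr3:106167565-106167814 (minus strand), chr3:106219508-106219729 (minus strand) and chr16:48842359-48842550 (plus strand). Capitals mark matches to the palindromic letters of STAT sites, TTC and GAA with a gap of 3 or 4 bases between them.
Chil1: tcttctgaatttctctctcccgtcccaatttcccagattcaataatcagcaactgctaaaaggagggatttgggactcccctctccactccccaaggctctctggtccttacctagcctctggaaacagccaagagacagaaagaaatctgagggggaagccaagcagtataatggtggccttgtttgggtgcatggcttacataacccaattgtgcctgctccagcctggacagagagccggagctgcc
Chil3: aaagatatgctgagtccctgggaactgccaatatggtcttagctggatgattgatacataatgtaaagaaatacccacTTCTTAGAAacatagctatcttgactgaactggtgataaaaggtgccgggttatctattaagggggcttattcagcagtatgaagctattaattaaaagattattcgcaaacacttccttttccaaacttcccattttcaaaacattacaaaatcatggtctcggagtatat
Chil4: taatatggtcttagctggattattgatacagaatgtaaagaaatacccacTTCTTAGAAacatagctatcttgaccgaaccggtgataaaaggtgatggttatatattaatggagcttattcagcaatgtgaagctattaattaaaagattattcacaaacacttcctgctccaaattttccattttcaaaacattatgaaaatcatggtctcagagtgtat
Retnla: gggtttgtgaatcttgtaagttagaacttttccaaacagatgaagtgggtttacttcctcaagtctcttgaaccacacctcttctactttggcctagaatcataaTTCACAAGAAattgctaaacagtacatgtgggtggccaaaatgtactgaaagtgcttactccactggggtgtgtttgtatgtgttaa

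The windows of *Chil3* and *Chil4* had the same base at 201 of 221 aligned positions (90.95%), and both held the match TTCTTAGAA 172 bases upstream of the first annotated start. The *Retnla* window held TTCACAAGAA 87 bases upstream, with the 4-base gap that STAT6 prefers, and the *Chil1* window held neither form. Among 32851 promoter windows of 300 bases, searched on both strands, 6.953% held the form with a gap of 4 bases and 8.298% the form with a gap of 3, so a match is not rare. The C/EBP letters TTGCNNAA, found in 10.8% of windows, matched in *Chil4* and *Retnla*, within the runs shown. TATAAA, found in 13.62% of windows, was in none of the runs shown. In the full windows it matched in *Chil3* and *Chil4* from 3 bases upstream of the first annotated start, where the run ends, and in *Retnla* 28 bases downstream of it. A match of letters is a description and does not show that a factor bound there.

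The likeness of *Chil3* and *Chil4* also bears on how their reads could be told apart. Of the distinct stretches of 50 bases in annotated *Chil3* transcripts, 16.88% occurred without a mismatch in *Chil4*, whereas 3.416% of the stretches of 100 bases and 0% of those of 150 bases did. No stretch of 50 bases was shared between *Chil1* and *Chil3*. Counting was limited to uniquely mapped reads, so a read pair inside an exactly shared stretch would not be counted, and both genes may be undercounted. Stretches that differ at few bases were not examined. Whether some reads of *Chil3* were counted for *Chil4*, or the reverse, was not tested.

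Counts on genes ran from 31086184 to 39925495 per BM library (median 34797411) and from 24876074 to 45300263 per ATM library (median 31854058). The biological coefficient of variation was 3.51% in BM and 32.5% in ATMs. The labels call the 3 libraries of a group biological replicates, but errors here measure only the spread between these libraries. The chi-square per gene between libraries of a group, about 1 for counting error alone, had a median of 2.87 in BM. It had a median of 19.6 in ATMs. Most BM libraries of a group thus differed by little more than counting error. Whether they came from separate mice was not tested, so the small SEs in BM may not cover the spread between mice. BM WT replicate 1 stood apart from the other WT libraries, and without it no BM value of *Chil1* or *Chil3* changed its side of the limits used for calls. The labelled cell type of the ATM libraries was checked against macrophage markers. All 9 were detected in every group, with a summed level of 55780 to 59407 normalized counts per library in Vehicle and 239750 to 245476 with the anti-IL-17A antibody, and *Adgre1*, which encodes F4/80, had its lowest mean in Vehicle (1404 normalized counts) and its highest with the antibody (29035). Markers of other cells were present as well. The 6 fibroblast and mesothelial markers summed above the 9 macrophage markers in every group (medians of 479430 and 84251 in WT). The 9 neutrophil markers measured did so in Vehicle (medians of 874418 and 58820) and Combo, and summed below them in the other groups. ATM is thus the label of these libraries and not a cell type shown to hold the 4 genes. Normalized counts are counts scaled to a common effective library size within a tissue, so levels are compared within a tissue only. In bulk RNA, a change in the number of cells of a type and a change in RNA per cell cannot be told apart, which holds for each value below.

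In ATMs, *Chil1*, *Chil3* and *Chil4* were far higher and *Retnla* far lower in Vehicle than in WT. With either agent alone the 3 chitinase-like genes were lower than in Vehicle, whereas under Combo *Chil1* and *Chil3* stayed near or above the Vehicle level and *Chil4* did not. *Retnla* was highest in WT by a wide margin and did not come close to that level in any Ob/Ob group.

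*Chil3* had 260, 371 and 231 normalized counts in the 3 WT libraries of ATMs. In Vehicle it had 24218, 22484 and 22866 normalized counts. With the GLP-1R agonist it had 4076, 4094 and 4365, with the anti-IL-17A antibody 3750, 3325 and 3235, and with Combo 31018, 31390 and 30385 normalized counts. No libraries of neighbouring groups overlapped, and the order from low to high was WT, anti-IL-17A antibody, GLP-1R agonist, Vehicle and Combo. The change from WT to Vehicle was 6.33 on the log2 scale (SE 0.13, n = 3 per group), or 80.5-fold. From Vehicle it was -2.47 (SE 0.11) with the GLP-1R agonist and -2.75 (SE 0.11) with the antibody, leaving 18.0% and 14.8% of the Vehicle mean. Combo lay 0.42 above Vehicle on the log2 scale (SE 0.10), which is under the fold limit of 1 that a call required.

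*Chil1* showed the same contrast in ATMs with a lower ceiling. It had 370, 208 and 272 normalized counts in WT, 5880, 5106 and 5303 in Vehicle, and 3958, 4438 and 4332 with Combo. The GLP-1R agonist libraries had 266, 295 and 355 and the antibody libraries 346, 444 and 351 normalized counts. WT, the GLP-1R agonist and the antibody overlapped with their neighbours, whereas Combo and Vehicle lay apart from these and from each other. *Chil1* in Vehicle was 19.2-fold the WT level (log2 4.26, SE 0.18), and changed by -4.15 (SE 0.18) with the GLP-1R agonist and by -3.84 (SE 0.18) with the antibody. The difference between Combo and Vehicle was -0.36 (SE 0.16).

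*Chil4* separated Vehicle from every other group of ATMs. Its raw counts were 0 in all 3 WT and all 3 GLP-1R agonist libraries, and 6016, 5557 and 5375 in Vehicle. The antibody libraries had 45, 17 and 6 counts and the Combo libraries 395, 700 and 369. Against a floor of 3 counts per library, Vehicle was at least 2261-fold higher than WT and the GLP-1R agonist at least 1988-fold lower than Vehicle. *Chil4* was 475-fold lower with the antibody than in Vehicle (log2 -8.89, SE 0.44) and 18.3-fold lower with Combo (log2 -4.19, SE 0.33). Combo libraries still lay above every antibody library, by 4.70 on the log2 scale (SE 0.41). Without antibody replicate 1, which had 45 counts, these changes were -9.79 for the antibody against Vehicle and 5.60 for Combo against the antibody. When *Chil3* and *Chil4* were summed into a single feature, the difference between Combo and Vehicle was 0.00 (SE 0.10), a difference smaller than its SE for the total of both genes.

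*Retnla* was highest in WT and lowest in Vehicle. WT libraries of ATMs held 62282, 60692 and 60581 normalized counts, and Vehicle libraries held 1289, 1101 and 1311. The GLP-1R agonist libraries held 3115, 3075 and 3323, the antibody libraries 6070, 6034 and 5896, and the Combo libraries 1517, 1444 and 1431. From low to high the order was Vehicle, Combo, GLP-1R agonist, anti-IL-17A antibody and WT, and no neighbours overlapped. *Retnla* was 49.6-fold lower in Vehicle than in WT (log2 -5.63, SE 0.065), 2.57-fold higher with the GLP-1R agonist than in Vehicle (log2 1.36, SE 0.057) and 4.86-fold higher with the antibody (log2 2.28, SE 0.057). The Combo level was 0.25 above Vehicle on the log2 scale (SE 0.057) and was 2.39% of the WT mean, so it lay below both single agents, by 1.12 (SE 0.055) against the GLP-1R agonist and 2.03 (SE 0.056) against the antibody. Per kilobase of exon, *Retnla* was the highest of the 4 genes in WT ATMs (3078 CPM per kilobase, SD 47.9, n = 3), and *Chil3* was the highest in Vehicle (428, SD 16.8) and Combo (571, SD 9.38).

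**Figure D1:**
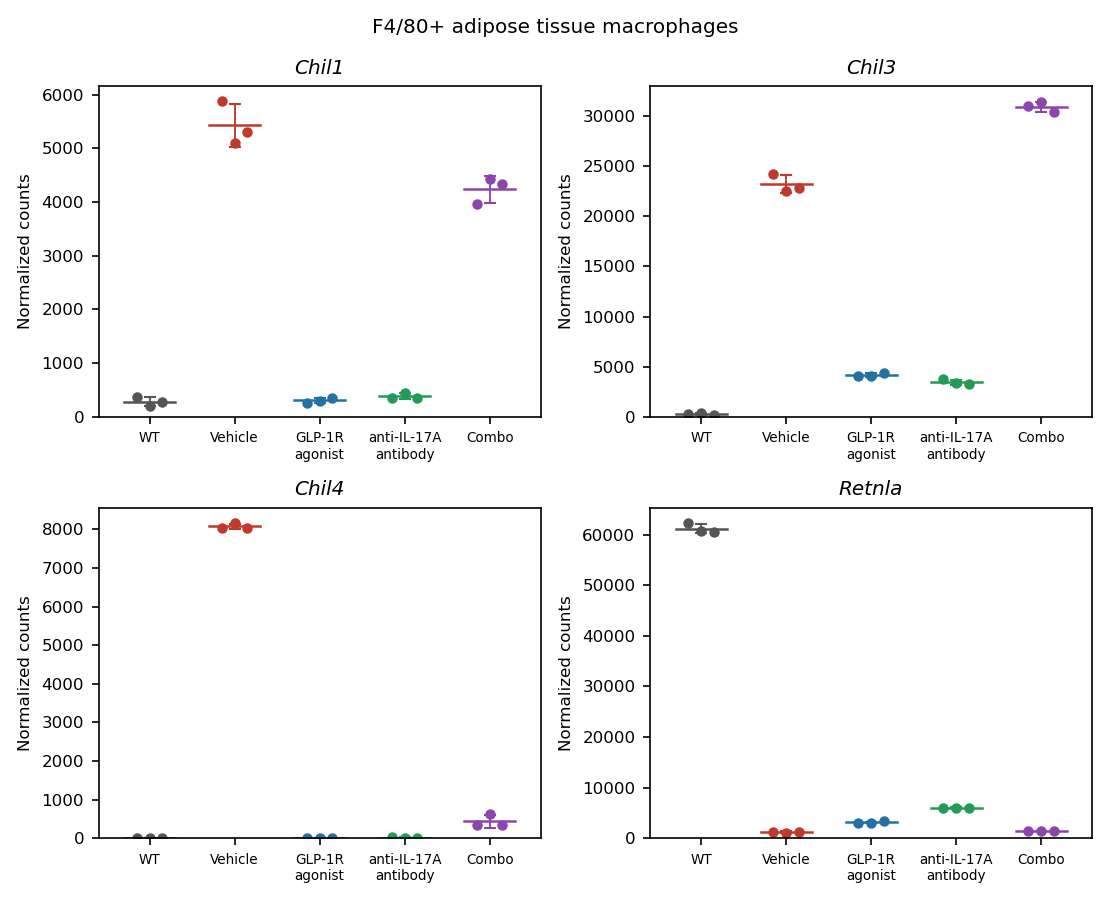
Normalized counts (linear axes from 0) of *Chil1*, *Chil3*, *Chil4* and *Retnla* in each ATM library of the 5 groups, with a point per library and a bar and whiskers for the mean and SD of 3 libraries. *Chil1* and *Chil3* are high in Vehicle and Combo, *Chil4* is high in Vehicle with means of 8079 there and 441 in Combo, and *Retnla* is high in WT with a mean of 61185.

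A gene was called where the Benjamini-Hochberg false discovery rate of edgeR was below 0.05 and the log2 fold change was beyond 1 in either direction. In Vehicle vs WT of ATMs 3 of the 4 genes were called higher and 1 lower, where 35.4% of all genes were called. The GLP-1R agonist against Vehicle gave 1 higher and 3 lower (31.8% of all genes called), as did the antibody against Vehicle (35.5%). Combo against Vehicle gave 1, *Chil4*, lower (26.4%). Against WT, against the GLP-1R agonist and against the antibody, Combo had the 3 chitinase-like genes higher and *Retnla* lower each time, where 21.6%, 18.7% and 14.2% of all genes were called. These comparisons share groups, so they are not separate pieces of evidence. The median log2 fold change of all genes was -0.21 in Vehicle vs WT, 0.19 with the GLP-1R agonist and 0.17 with the antibody, which is small beside the changes called for these genes.

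In BM *Chil3* was highest in Vehicle, *Chil1* was low with the GLP-1R agonist, and *Chil4* was barely counted.

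*Chil3* in BM had 157654, 155257 and 155061 normalized counts in WT and 442152, 439400 and 436929 in Vehicle. With the antibody it had 159116, 159802 and 160254, with the GLP-1R agonist 193953, 196782 and 192972, and with Combo 246726, 248728 and 246410. From low to high the order was WT, anti-IL-17A antibody, GLP-1R agonist, Combo and Vehicle, and no neighbours overlapped. The Vehicle level was 2.82-fold the WT level (log2 1.49, SE 0.020). *Chil3* changed from Vehicle by -1.18 (SE 0.019) with the GLP-1R agonist, by -1.46 (SE 0.020) with the antibody and by -0.83 (SE 0.019) with Combo. Combo thus stayed above WT by 0.66 (SE 0.019), above the antibody by 0.63 (SE 0.019) and above the GLP-1R agonist by 0.35 (SE 0.019), each short of the fold limit.

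*Chil1* in BM had 14040, 15187 and 15066 normalized counts in WT, 13916, 14178 and 14307 in Vehicle, and 14808, 14799 and 14594 with the antibody. The GLP-1R agonist libraries had 5991, 5807 and 6070, and the Combo libraries 17322, 16979 and 17135. The GLP-1R agonist group was the lowest and Combo the highest, and the other groups lay close together. *Chil1* changed by -1.25 on the log2 scale (SE 0.027) with the GLP-1R agonist against Vehicle, and Combo was 2.88-fold above the GLP-1R agonist (log2 1.53, SE 0.027). Vehicle differed from WT by -0.06 (SE 0.026), the antibody from Vehicle by 0.06 (SE 0.026) and Combo from Vehicle by 0.28 (SE 0.026), all well inside the fold limit.

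*Chil4* was counted 33, 19 and 31 times in the WT libraries of BM and 62, 38 and 51 times in Vehicle. The GLP-1R agonist libraries had 42, 31 and 23 counts, the antibody libraries 12, 30 and 30, and the Combo libraries 33, 31 and 27. In normalized counts, Vehicle (40.8 to 70.3) was the only group whose libraries overlapped with none of the others. The change from WT to Vehicle was 1.09 (SE 0.30), which lost its call without Vehicle replicate 1 (0.91) or without WT replicate 2 (0.90), so at these counts it is close to the limit. Against Vehicle *Chil4* changed by -0.92 (SE 0.29) with the GLP-1R agonist, by -1.35 (SE 0.30) with the antibody and by -0.85 (SE 0.29) with Combo. The first of these was past the limit without GLP-1R agonist replicate 1 (-1.17) or without Vehicle replicate 2 (-1.13), and the last without Vehicle replicate 2 (-1.05).

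**Figure D2:**
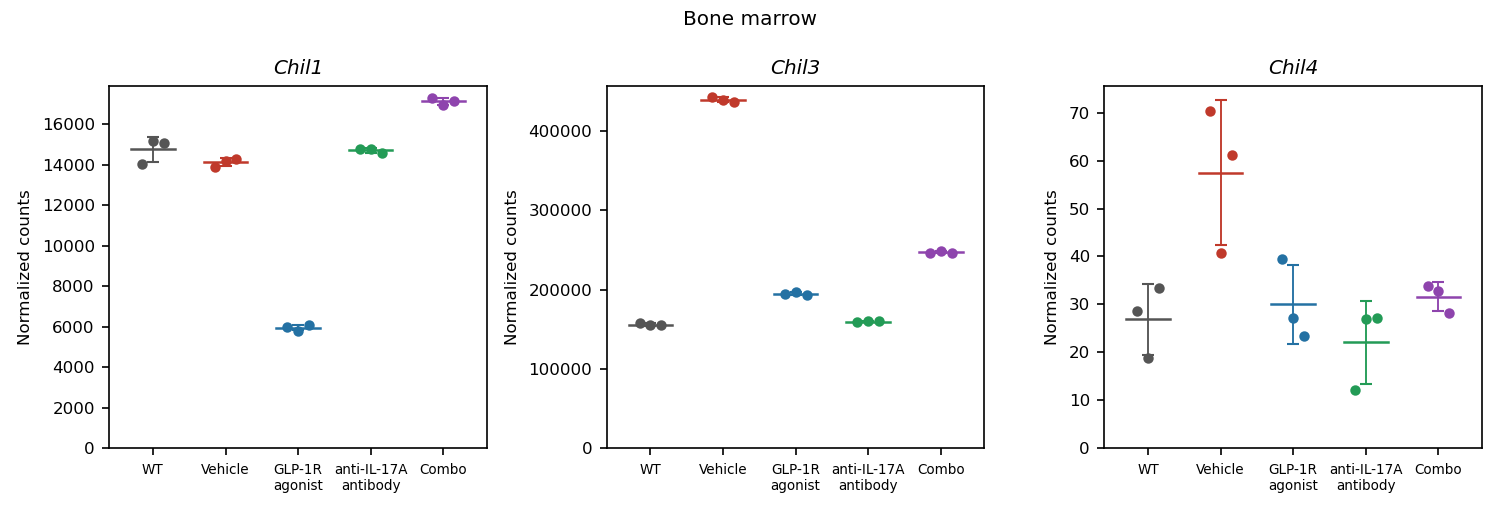
Normalized counts (linear axes from 0) of *Chil1*, *Chil3* and *Chil4* in each BM library of the 5 groups, with a point per library and a bar and whiskers for the mean and SD of 3 libraries. *Chil3* is highest in Vehicle (mean 439493), *Chil1* is lowest with the GLP-1R agonist (mean 5956), and the *Chil4* means run from 22.1 to 57.4.

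Of the 3 genes in the BM table, 2 were called higher in Vehicle than in WT, where 19.5% of all genes were called. The GLP-1R agonist against Vehicle gave 2 lower (16.7% of all genes) and the antibody against Vehicle gave 2 lower (16.1%). Combo gave 0 called against Vehicle (17.7%), 0 against WT (14.3%), 1 higher against the GLP-1R agonist (13.2%) and 0 against the antibody (5.67%). Where edgeR gave 0, DESeq2 gave 0 as well, and 3, 2 and 2 of the 3 genes were below an unadjusted p of 0.05 in edgeR against Vehicle, WT and the antibody in turn, with changes short of the fold limit. The median log2 fold change of all genes in BM ran from -0.02 to 0.02.

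Markers of other myeloid cells differed between the BM groups as well, although not all in the direction of *Chil3*. Of 8 monocyte markers 3 rose and 2 fell in Vehicle vs WT (list median -0.04), and of 9 neutrophil markers 1 rose and 1 fell (-0.26), where 19.5% of all genes were called. The 8 monocyte markers summed to 64922 to 65590 normalized counts in WT and 128626 to 133973 in Vehicle, the highest of the 5 groups, as for *Chil3*. With the GLP-1R agonist they summed to 55437 to 56424, the lowest group, whereas *Chil3* was above WT there. The antibody gave 81587 to 82597 and Combo 84303 to 84401. The 9 macrophage markers were also highest in Vehicle (median sum 25432) and were lowest with Combo (10363). The 9 neutrophil markers measured summed to 3710990 to 3969920 in WT, 4463020 to 4513250 in Vehicle, 2813760 to 2839350 with the GLP-1R agonist, 3367280 to 3415480 with the antibody and 4812820 to 4867950 with Combo. This sum was highest in Combo and not in Vehicle, where *Chil3* was highest, whereas *Chil1*, lowest with the GLP-1R agonist and highest with Combo, had its lowest and highest groups in common with this sum. *Saa3*, an acute-phase protein that peritoneal macrophages and inflamed fat make, had means of 21.2 in WT, 73246 in Vehicle and at most 203 in the other groups of BM. The 6 serous cavity macrophage markers measured, *Saa3* among them, summed to 5012 to 5181 in WT and 75190 to 79485 in Vehicle. *Saa3* thus made up most of the sum in Vehicle and little of it in WT. The part of these markers' cells in the *Chil1* and *Chil3* levels was not tested.

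The tissues differed in the size of the changes and in places in their sign. *Chil3* was higher in Vehicle than in WT in both tissues, by 1.49 in BM and 6.33 in ATMs, and it was lower with either single agent than with vehicle in both. Under Combo *Chil3* was below Vehicle in BM (-0.83) and above it in ATMs (0.42). *Chil1* with the antibody differed from Vehicle by 0.06 in BM and -3.84 in ATMs. Whether these changes differ between the tissues was not tested.

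**Figure D3:**
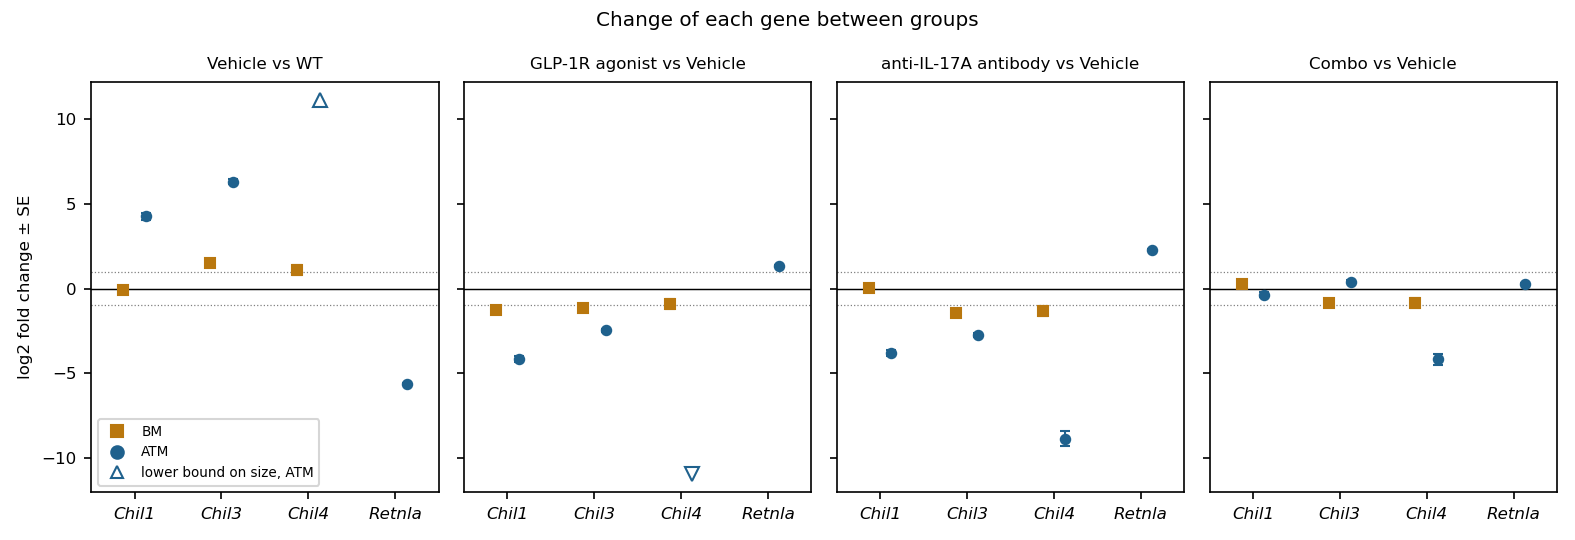
The log2 fold change (y axis) of the 4 genes (x axis) in 4 comparisons, with squares for BM, circles for ATMs and whiskers for the SE, most of which are smaller than the symbols. Open triangles give bounds where a group was at 0 counts, and dotted lines mark the fold limit of 1. Changes in ATMs reach 6.33 for *Chil3* and -5.63 for *Retnla* in Vehicle vs WT, whereas those in BM stay between -1.46 and 1.49.

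*Chil4* relative to *Chil3* set ATMs of the Vehicle group apart from all other samples. In BM *Chil4* counts were 0.00766% to 0.0215% of *Chil3* counts in every library, and the 5 groups overlapped. Whether reads of *Chil3* made up some of these few BM counts was not tested. In ATMs of Vehicle they were 33.2%, 36.3% and 35.2%. In Combo they were 1.10%, 2.01% and 1.15%, and with the antibody 0.841%, 0.391% and 0.148%. The GLP-1R agonist libraries had 0 *Chil4* counts beside 12119 of *Chil3*, which allows a share of up to 0.0248%, and the WT libraries had 0 beside 783, which allows up to 0.383%. These limits cover counting error only. ATMs with the GLP-1R agonist thus held *Chil3* at 4178 mean normalized counts with 0 *Chil4* counts. ATMs with Combo held *Chil3* at 30931 and *Chil4* at 441. The *Chil4* shares with Combo and with the antibody were far below those of Vehicle, yet above those of every BM library.

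**Figure D4:**
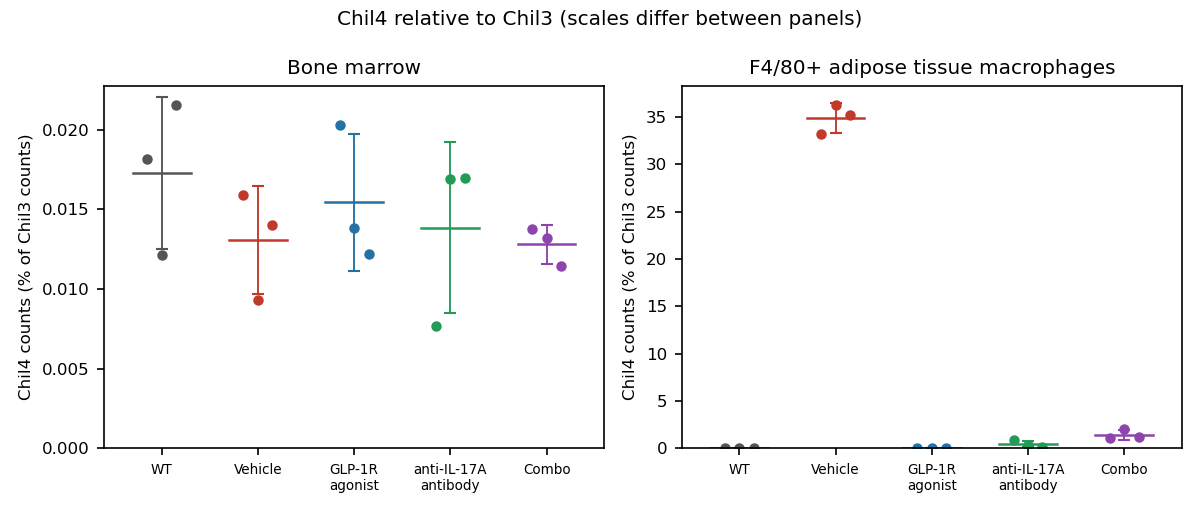
Counts of *Chil4* as a percentage of counts of *Chil3* (y axes, scales differing between the panels) in each library of BM and of ATMs by group, with a point per library and a bar and whiskers for mean and SD. Shares in BM lie between 0.00766% and 0.0215%, whereas in ATMs the Vehicle libraries lie between 33.2% and 36.3% and all others at or below 2.01%.

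Some markers of other cells moved with these genes in ATMs and others did not. The 8 monocyte markers summed to 119790 to 125031 normalized counts in WT and 53619 to 57002 in Vehicle, the lowest of the 5 groups. The 6 lymphocyte markers were lowest in Vehicle as well (3141 to 3802, against 10886 to 12593 in WT). The 8 adipocyte markers summed to 132930 to 141169 in Vehicle and to at most 42836 in any library of the other groups. All 9 neutrophil markers measured, of 10 listed, were called higher in Vehicle than in WT, where 35.4% of all genes were called, and their summed level was 9329 to 9997 normalized counts per library in WT, 836105 to 886165 in Vehicle, 7006 to 7180 with the GLP-1R agonist, 14053 to 14768 with the antibody and 439599 to 452728 with Combo. The groups in which *Chil1* and *Chil3* were high were those in which this sum was high. *S100a8*, a calcium-binding protein of neutrophils and monocytes, had means of 1940 in WT, 318239 in Vehicle and 121676 with Combo, and *Ngp*, a granule protein of neutrophil precursors, 728, 85040 and 92237. The 5 granule genes of immature granulocytes, all measured, summed to 645 to 859 in Vehicle and 11588 to 12348 with Combo. The 8 pancreatic acinar markers summed to 37619 to 38962 with Combo and to at most 199 in any other library, with *Cela3b* and *Pnlip* at 0 in the other 4 groups. *Saa3* had means of 206 in WT, 112558 in Vehicle, 2534 with the GLP-1R agonist, 1865 with the antibody and 26442 with Combo, with Vehicle highest and Combo next, as for *Chil4*. The 7 serous cavity macrophage markers, *Saa3* among them, summed to 13809 to 14182 in WT, 122414 to 133850 in Vehicle and 30440 to 30857 with Combo. Without *Saa3*, the others together were lower with Combo than in WT, unlike *Saa3* and *Chil4*. The part of these markers' cells in the *Chil1*, *Chil3* and *Chil4* levels was not tested.

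As a share of the summed neutrophil markers, a ratio chosen after the values were seen, *Chil3* ran in BM from 4.07% (SD 0.11, n = 3) in WT to 9.79% (SD 0.061) in Vehicle. In ATMs it was 3.01% (SD 0.83) in WT, 2.68% (SD 0.060) in Vehicle and 6.94% (SD 0.039) with Combo. The WT and Vehicle libraries lay below the BM libraries (3.97% to 9.85%) or at their lower edge, and the Combo libraries lay among them. With the GLP-1R agonist it was 58.7% (SD 1.91) and with the antibody 23.7% (SD 1.45), well above every BM library. *Chil1* was 0.211% (SD 0.0039) to 0.435% (SD 0.0028) of the marker sum in BM and 0.627% (SD 0.032) in ATMs of Vehicle, and in the ATM groups with low marker sums it ran from 2.63% (SD 0.37) to 4.29% (SD 0.59). *Chil4* was 0.934% (SD 0.036) of the marker sum in ATMs of Vehicle and at most 0.00156% of it in any BM library.

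**Figure D5:**
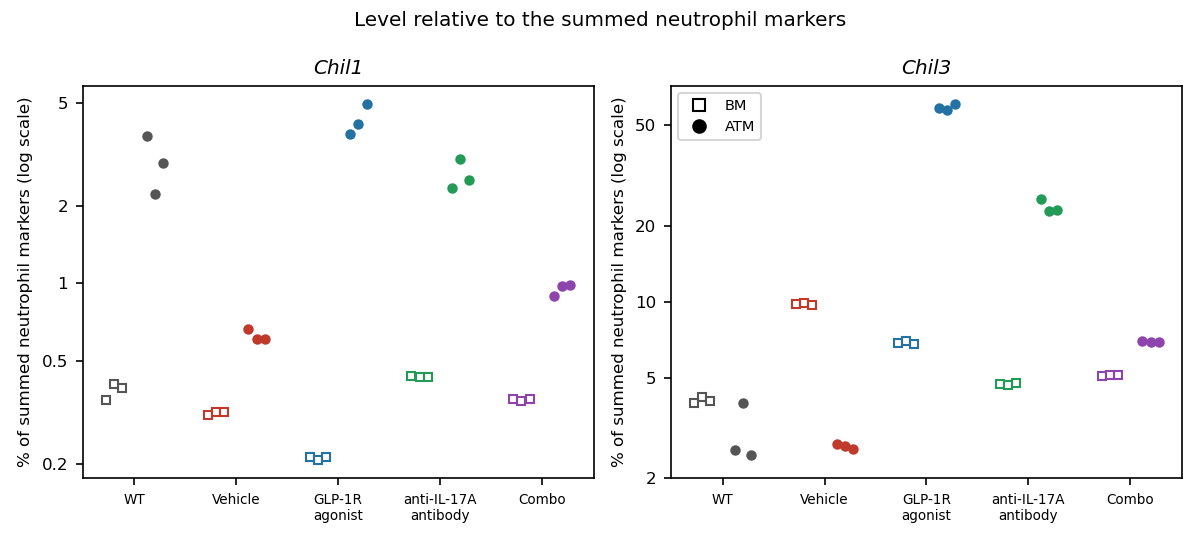
Level of *Chil1* and *Chil3* as a percentage of the summed normalized counts of 9 neutrophil markers (log-scaled y axes) in each library by group, with open squares for BM and filled circles for ATMs. For *Chil3*, the ATM libraries of WT, Vehicle and Combo lie between 2.48% and 6.99%, and those of the GLP-1R agonist and the antibody between 22.8% and 60.8%.

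Epididymis markers, like *Retnla*, were highest in WT. The 4 epididymis markers measured, of 8 listed, summed to 99254 to 104236 normalized counts in WT libraries of ATMs, 1395 to 1558 with the GLP-1R agonist, 4812 to 5812 with the antibody, and at most 70.3 in Vehicle and Combo, which is the order of *Retnla* across the groups apart from Vehicle and Combo. *Crisp1*, a secreted protein of the epididymis, had a mean of 100306 in WT, and *Lcn5* and *Adam7* were at 0 in Vehicle and Combo. The 6 fibroblast and mesothelial markers, all measured, did not have the order of *Retnla*. They summed to 463431 to 489985 in WT, 164666 to 175501 in Vehicle, 670638 to 683291 with the GLP-1R agonist, 417120 to 426342 with the antibody and 374769 to 383412 with Combo, so that the GLP-1R agonist was the highest group. The mesothelial *Upk3b* among them had means of 19926 in WT, 219 in Vehicle, 1751 with the GLP-1R agonist, 516 with the antibody and 2232 with Combo. *Retnla* is also made outside macrophages, in fat and epithelia among others, and the part of these cells in its level was not tested. The 6 eosinophil markers measured, of 8 listed, whose cells supply IL-4 in fat, summed to 1055 to 1208 in WT, 377 to 472 in Vehicle and 1000 to 1361 with Combo, with *Epx* at 0 in Vehicle and in both single-agent groups.

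The other measured members of the chitinase and resistin families did not share a common direction. *Retnlg*, a resistin-like gene of neutrophils, rose in ATMs from 1768 normalized counts in WT to 25636 in Vehicle (log2 3.86, SE 0.072) and fell in BM from 108691 to 16310 (log2 -2.74, SE 0.023). It fell in ATMs with each single agent (-4.53, SE 0.074, with the GLP-1R agonist and -4.23, SE 0.073, with the antibody) and rose in BM with the GLP-1R agonist (2.04), the antibody (2.55) and Combo (2.52). *Retn*, which encodes resistin, an adipocyte hormone in mice, fell in ATMs from 404 to 117 (log2 -1.79, SE 0.32). The summed level of the 8 adipocyte markers, *Retn* among them, went the other way, with medians of 40792 in WT and 135045 in Vehicle. *Chid1* fell in ATMs of Vehicle (-1.44, SE 0.28). In BM it was called lower with the GLP-1R agonist than in Vehicle (-1.25, SE 0.080, 16.7% of all genes called), as *Chil1* was. *Chit1*, an active chitinase, had ATM means of 1.82 in WT and 7.96 in Vehicle and was not called there. *Ovgp1*, an oviduct member of the family that shares 28.7% of its exons with *Gm42890*, fell in BM of Vehicle (-1.65, SE 0.15) and rose there with Combo (1.62, SE 0.15). In ATMs it was not called in Vehicle vs WT (2.97, SE 1.26). Against Vehicle it was called lower there with the GLP-1R agonist (-3.49, SE 1.29) and the antibody (-3.74, SE 1.30), where 31.8% and 35.5% of all genes were called. Its ATM means were 21.7 in WT, 170 in Vehicle, 15.1 and 12.6 with these agents and 230 with Combo. Vehicle and Combo were thus its high groups, as for *Chil1* and *Chil3*. *Ctbs* was not called in any comparison of the Vehicle group.

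The signals and receptors that induce alternative activation were read next to the 4 genes. Of 9 measured in ATMs, 4 rose and 0 fell in Vehicle vs WT, where 35.4% of all genes were called, with a list median of 0.77 against -0.21 for all genes. With Combo against Vehicle 0 rose and 5 fell, where 26.4% of all genes were called (list median -1.48, all genes 0.00). *Il4ra*, the receptor chain shared by IL-4 and IL-13, rose from 9000 to 23790 (log2 1.40, SE 0.068) and *Il13ra1* from 2351 to 9480 (log2 2.01, SE 0.15). With Combo *Tslp*, an epithelial cytokine that favours type 2 responses, fell from 453 to 48.6 (-3.22, SE 0.36), and *Il13ra2*, a decoy receptor for IL-13 that also binds CHI3L1, fell from 96.7 to 1.44 (-5.92, SE 1.38). *Il4* itself had means of 58.3 in WT, 68.7 in Vehicle and 39.8 with Combo in ATMs, and *Il13* means of 27.2, 9.30 and 18.4.

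In BM 7 of the 10 signals and receptors were measured. Of these 2 rose and 1 fell in Vehicle vs WT (list median 0.06, 19.5% of all genes called), and 1 rose and 3 fell with Combo against Vehicle (-0.51, 17.7% of all genes called). *Il4ra* rose in Vehicle (1.58, SE 0.031), as did *Il2rg*, the common γ chain (1.65, SE 0.037, which shares 30.5% of its exons with the model *Gm20489*), and *Tslp* fell (-1.37, SE 0.42) at means of 26.3 and 10.1. With Combo *Il2rg* (-2.55, SE 0.039) and *Il4* (-1.57, SE 0.37, from 34.4 to 11.5) fell, and *Tslp* rose (1.18, SE 0.43).

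Of 13 transducers and transcription factors of alternative activation, all measured in both tissues, 2 rose and 1 fell in Vehicle vs WT of ATMs, where 35.4% of all genes were called, and 1 rose and 4 fell with Combo against Vehicle (26.4%). *Stat6* had means of 6921 in WT, 5824 in Vehicle and 7307 with Combo in ATMs and was not among those called. *Cebpb* (2.43, SE 0.40, which shares 20.7% of its exons with *Tmem189*) and *Pparg* (1.66, SE 0.15) rose in Vehicle and *Irf4* fell (-1.56, SE 0.30). With Combo *Irf4* rose (1.12, SE 0.30), and *Cebpb* (-1.59, SE 0.39) and *Socs1*, a feedback inhibitor of cytokine receptors (-1.49, SE 0.11), fell. In BM 5 rose and 3 fell in Vehicle vs WT (19.5% of all genes called), led by *Jak3* (2.20, SE 0.049), *Socs1* (2.03, SE 0.089), *Klf4* (-2.85, SE 0.067) and *Irf4* (-2.45, SE 0.060), and with Combo against Vehicle (17.7%) *Klf4* (2.72, SE 0.067) and *Kdm6b* (1.04, SE 0.032) rose and *Socs1* fell (-2.74, SE 0.096).

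The other genes of alternative activation split, as the 4 genes did. In Vehicle vs WT of ATMs 6 of 23 rose and 9 fell, with a list median of 0.50, where 35.4% of all genes were called. *Il1rn*, the IL-1 receptor antagonist, rose from 1476 to 20175 (3.77, SE 0.068) and *Ch25h*, a cholesterol hydroxylase, from 303 to 3800 (3.65, SE 0.20), whereas the chemokine *Ccl24* fell from 1138 to 37.4 (-4.93, SE 0.47) and the lectin *Mgl2* from 2175 to 78.0 (-4.80, SE 0.24). With Combo against Vehicle 9 rose and 7 fell (list median 0.56, 26.4% of all genes called), among them the mannose receptor *Mrc1* (CD206), from 263 to 3626 (3.80, SE 0.28), and the scavenger receptor *Cd163*, from 48.8 to 657 (3.75, SE 0.29), while *Ch25h* (-4.30, SE 0.20) and *Ccl22* (-2.84, SE 0.21) fell. *Mgl2*, *Ccl24*, *Mrc1* and *Cd163* were lowest in Vehicle, as *Retnla* was, but *Mrc1* and *Cd163* rose with Combo, where *Retnla* stayed 0.25 above Vehicle on the log2 scale. *Il1rn* and *Ch25h* were highest in Vehicle and lower with Combo (means of 5740 and 193), where *Chil3* was highest.

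In BM 6 of 20 rose and 8 fell in Vehicle vs WT (list median -0.89, 19.5% of all genes called), and 6 rose and 6 fell with Combo against Vehicle (0.56, 17.7% of all genes called). *Arg1*, which encodes arginase 1, rose in BM from 13.6 to 2494 (7.54, SE 0.12) and was 6.94 with Combo (-8.46, SE 0.14), and *Ccl22* rose from 13.4 to 113 (3.08, SE 0.31) and fell to 7.27 (-3.93, SE 0.35). *Clec7a*, the receptor dectin-1, fell from 6519 to 566 (-3.53, SE 0.050), and *Igf1* from 328 to 33.9 (-3.27, SE 0.16). With Combo *Mgl2* (2.15, SE 0.085) and *Egr2* (1.61, SE 0.22) rose. The *Arg1* mean in ATMs was 344 in WT, 1722 in Vehicle and 7162 with Combo, so *Arg1* and *Chil3* were both highest in Combo there, whereas in BM *Arg1* under Combo was below WT and *Chil3* was above it. Of the binding partners described for CHI3L1, 4 were measured in ATMs, and *Lgals3* (1.94, SE 0.030) and *Cd44* (1.17, SE 0.067) rose in Vehicle vs WT (35.4% of all genes called). In BM 3 were measured, and 0 passed the call limits of edgeR or DESeq2 in Vehicle vs WT, although 3 were below an unadjusted p of 0.05 in edgeR.

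Genes whose pattern was most like each of the 4 were ranked by Pearson's r of log2 normalized counts over the 15 libraries of a tissue, which form groups and are not independent, so r is given as a description. In ATMs *Wfdc21* (0.994), *S100a9* (0.992) and *S100a8* (0.990) were most like *Chil1*. *Lcp2* (0.983), *Pstpip1* (0.964) and *Mob3a* (0.963) were most like *Chil3*, and *Vasp* (0.989), *Bst1* (0.985) and *Fpr2* (0.985) were most like *Chil4*. *Pcbd1* (0.985), *Pantr1* (0.984) and *Spink11* (0.984) were most like *Retnla*, and *Spink11* had a mean of 6416 in WT and 0 in Vehicle and Combo. Among the 4 genes themselves r in ATMs was 0.837 for *Chil1* and *Chil3*, 0.947 for *Chil1* and *Chil4*, and 0.811 for *Chil3* and *Chil4*. With *Retnla* r was -0.739 for *Chil1*, -0.975 for *Chil3* and -0.727 for *Chil4*.

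In BM the genes most like *Chil3* were *Erdr1* (0.990), *Il1r2* (0.988), the decoy receptor of IL-1, with means of 2392 in WT and 42221 in Vehicle, and *Sla* (0.988). *Trp53* (0.990), *Acap1* (0.981) and *Naaa* (0.978) were most like *Chil1*, each lowest with the GLP-1R agonist. *Nubp2* (0.848), *Gtf2f2* (0.844) and *Ubxn4* (0.840) were most like *Chil4*, whose low counts limit r. *Chil1* and *Chil3*, which had r of 0.837 in ATMs, had 0.142 in BM, and *Chil3* and *Chil4* had 0.774.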

How the data were processed

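The authors aligned paired-end reads to mm10 with STAR 2.7.2a, counted uniquely mapped reads on GENCODE M22 genes with featureCounts 2.0.1 (unstranded, mapping quality of at least 10, reads over several genes counted for each) and tested with DESeq2. The deposited values are raw counts, 1 table per tissue, and their low-count filter is not given in the sources used here. Groups were taken from the sample labels.

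For each tissue, the 15 libraries entered a single quasi-likelihood model of edgeR 4.0.16 (R 4.3.3), with TMM scaling, robust estimation and 2-sided tests. The filterByExpr step removed 0 genes. Calls required a Benjamini-Hochberg false discovery rate below 0.05 over all genes of a tissue and a log2 fold change beyond 1. SEs were derived from the F statistic. Where a group had 0 counts, bounds used 3 counts per library. Exon lengths came from GENCODE M21. The method was tested on simulated counts for Vehicle vs WT, with 200 genes changed by 2 on the log2 scale. Only libraries of these groups were simulated, around the WT mean, with as many genes raised as lowered. In the ATM data 2125 genes were called higher and 3909 lower in this comparison. The scaling under such a shift was not tested. With the spread of BM, edgeR called 195 of the 200 changed genes and 2 other genes. With the spread of ATMs it called 126 and 4 others, and DESeq2 called 157 and 59 others. A gene not called in ATMs may therefore still have changed. The 4 genes and all gene lists were chosen with earlier results of these data known. From each pathway list, the 2 called genes with the largest change in each direction and a mean of at least 10 counts were named in Vehicle vs WT and Combo vs Vehicle. All other measured chitinase and resistin family genes were named, as were markers beside a result and the 3 genes most alike with a mean of at least 50 counts. *Stat6*, *Saa3*, and *Il4*, *Il13* and *Arg1* in ATMs were chosen after their values were seen. Alternatives were DESeq2 1.42.0, its size factors, other filters and designs, single libraries left out, and *Chil3* and *Chil4* summed.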

Additional observations from a re-analysis of the deposited data

Results flagged for a closer look

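Between BM and ATMs, the changes of *Chil1* and *Chil3* had opposite signs in some comparisons, with every library of the treated group on the same side of every Vehicle library within a tissue. *Chil1* with the anti-IL-17A antibody differed from Vehicle by 0.060 on the log2 scale in BM and by -3.84 in ATMs. *Chil1* with Combo differed from Vehicle by 0.28 in BM and by -0.36 in ATMs. *Chil3* with Combo differed from Vehicle by -0.83 in BM and by 0.42 in ATMs. Of these 6 values 1, *Chil1* with the antibody in ATMs, passed the limits of a call, where 35.5% of all genes were called. The shares called were 16.1% with the antibody in BM, and 17.7% in BM and 26.4% in ATMs with Combo. Without the fold limit, 9750 (antibody) and 9849 (Combo) of 13353 genes in BM passed against Vehicle, so small differences without overlap are common there. The share of all genes with opposite signs and no overlap was not computed. The difference between the tissues was not tested.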

How the results depend on the processing

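All 49 changes of the 4 genes kept their direction and their side of the call limits with DESeq2, with DESeq2's size factors in edgeR, with only the groups compared and with a replicate block, as did the 42 that could be computed at 10 or more counts in every library. That filter left no value for *Chil4* in ATMs. Replicate numbers did not pair the libraries, since same-numbered deviations correlated at -0.07 to 0.15 in BM and -0.04 to 0.03 in ATMs. With the replicate block, *Chil3* changed by 1.49 in BM and 6.33 in ATMs from WT to Vehicle, and all genes called in that comparison numbered 2595 and 5922, against 2598 and 6034 without it. Of 294 fits without a single library, 288 kept their call and direction, and the others were of *Chil4* in BM. There its change ran from 0.90 to 1.29 in Vehicle vs WT, from -1.17 to -0.75 with the GLP-1R agonist against Vehicle, from -1.05 to -0.68 with Combo against Vehicle and from -0.067 to 0.31 with Combo against the GLP-1R agonist. With *Chil3* and *Chil4* summed, the *Chil4* value became -1.18 with the GLP-1R agonist against Vehicle in BM and 0.0047 with Combo against Vehicle in ATMs, since *Chil3* supplies most of the counts of the sum. Without the fold limit, 7 signals and receptors, 12 transducers and 19 other alternative activation genes were called in BM with Combo against Vehicle. Of all genes 9849 of 13353 passed there. In Vehicle vs WT of BM 13 transducers were called, where 10227 of all 13353 genes passed. In ATMs 8 of 13 transducers were called in Vehicle vs WT (9704 of all 17059 genes) and 11 with Combo (8309 of 17059). These list counts are thus not read as a result about the lists. The low *Chil4* counts in BM, 12 to 62 per library, limit its changes there.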
